A study of Mus musculus with 6 samples.

Results

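Metallothioneins and the genes of zinc transport were read in 6 RNA sequencing libraries of cells that the labels call AML12, an immortalized mouse hepatocyte line. The 10 genes are the metallothioneins MT1E, MT1F, MT1X and MT2A, the metal sensor MTF1, the zinc exporters SLC30A1, SLC30A5 and SLC30A7, and the zinc importers SLC39A10 and SLC39A14. They were picked by symbol from the 20499 genes of the count table, with earlier results of this same comparison known. Their differences between the arms are therefore given as a description, and threshold calls on them are not read as tests. The shRNF11 arm, of 3 libraries, came from cells with a lentiviral knockdown of RNF11, which encodes a RING finger protein. The shControl arm, also of 3, has WT as its genotype label. By the labels, all 6 cultures went through hypoxia and reoxygenation. They had 6 h at 1% oxygen in medium lacking glucose and serum and then complete medium in normal air. The complete medium is described as holding 10% serum, insulin, transferrin, selenium and 40 ng/mL of the glucocorticoid dexamethasone. These conditions are known from the labels alone. The length of reoxygenation is not given. The labels do not say whether each arm was 1 clone or whether replicates were separate cultures, so a p-value here reflects variation among the libraries at hand, which may be technical.

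Metallothioneins are small, cysteine-rich proteins that bind zinc, copper and cadmium. When free zinc rises, the transcription factor MTF1 binds metal response elements and switches their genes on. Human MT2A is also a classic glucocorticoid-induced gene. Zinc leaves the cytosol through SLC30 proteins, to the outside or into organelles, and enters it through SLC39 proteins.

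Gene symbols and Entrez numbers in the table are human, while the labels state mouse: 0 of its 20499 Entrez numbers are among 49997 genes of the mouse RefSeq table. The libraries held 37485850 to 39045440 reads. RNF11 had 573, 565 and 599 reads in the shRNF11 libraries, against 2050, 1926 and 1930 in the shControl libraries, 3.32-fold lower (edgeR adjusted p = 3.48e-28) and without overlap. Hepatocyte markers were close to absent, with 8 of 12 listed, 105 reads in all 6 libraries together and none of them abundant enough to be tested. The 4 listed epithelial markers of 6 summed to 3773 to 3900 CPM in shRNF11 and 3105 to 3234 CPM in shControl. Nearly all of this came from the keratins KRT7, KRT8 and KRT18. CDH1 had only 29 reads in all 6 libraries together and was not tested, while KRT19 and EPCAM were not listed and so not analysed. The part of these markers in the values below was not tested. Fibroblast markers summed to 65.0 to 93.2 CPM in shRNF11 and 67.9 to 91.4 CPM in shControl, mostly COL1A1 and DCN. Among them COL1A2 averaged 4.41 CPM in shRNF11 and 1.65 CPM in shControl, and LUM 3.42 CPM in shRNF11 and 1.44 CPM in shControl, and their part in the values was not tested either. Leukocyte markers, nearly all CD68, summed to 41.5 to 46.5 CPM in shRNF11 and 47.7 to 52.7 CPM in shControl. PTPRC and CD3E were not listed and so not analysed. CPM stands for reads per 1000000 reads of a library after TMM scaling. These are bulk libraries, in which fewer cells of a type and less RNA per cell cannot be told apart.

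The 4 metallothioneins were 1.85-fold to 2.96-fold higher in shRNF11 cells, and no library of one arm overlapped the other for any of them. MTF1 and the 5 zinc transporters lay within 1.30-fold, in both directions. A gene was counted as changed at a Benjamini-Hochberg adjusted p under 0.05 in the quasi-likelihood test of edgeR over 13489 genes. By that count 6 members were higher, where 17.4% of all tested genes were higher, and 1 was lower, where 14.7% were lower. The share changed in either direction was 32.1% of all tested genes, against 7 of these 10 genes. Since the genes were chosen with this comparison known, the counts describe them and carry no further weight. The median log2 fold change was 0.24 over the 10 members and -0.0079 over all tested genes. Scaling by library totals alone shifts the median of all genes by -0.0642 and turns the 2348 higher and 1988 lower genes into 1335 higher and 3255 lower. The 4 metallothioneins and SLC39A14 stayed higher under it.

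**Figure D1:**
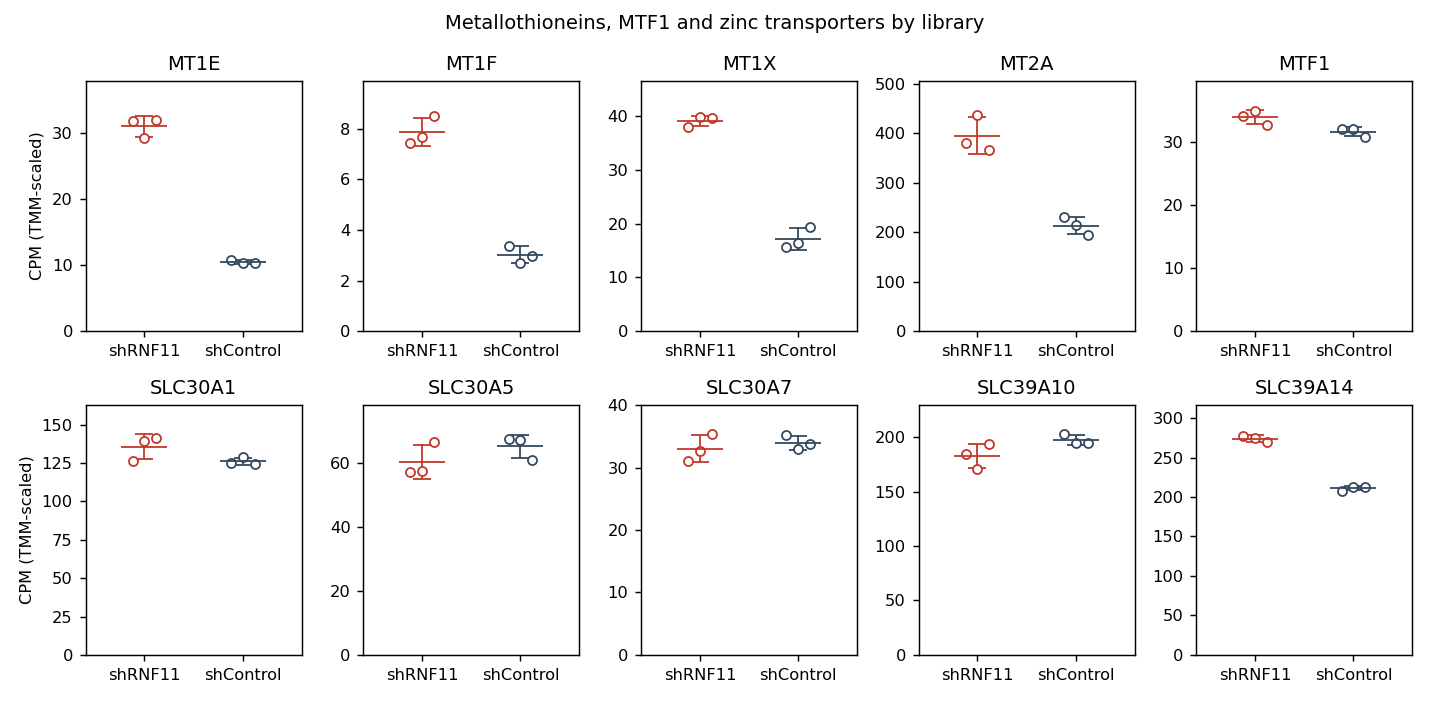
CPM of each of the 10 genes (y axes, from 0) in the 3 shRNF11 and 3 shControl libraries; open points are libraries, and the cross lines and bars give the mean and SD. The top row shows the 4 metallothioneins well apart between the arms, MT2A with 367.1 to 437.4 CPM in shRNF11 and 195.4 to 230.3 CPM in shControl, while most panels of MTF1 and the transporters show arms close together.

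MT1E (Entrez 4493) had 31.8, 29.2 and 31.9 CPM in the shRNF11 libraries, against 10.7, 10.3 and 10.3 CPM in the shControl libraries. It had the largest fold change of the 10 genes, at 2.96-fold (log2 fold change 1.56, SE 0.0795). The libraries of each arm lay close together, and the arms far apart.

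MT1F (Entrez 4494) had the fewest reads of the 4, with 277, 292 and 322 in shRNF11 and 131, 104 and 115 in shControl. It averaged 7.87 ± 0.556 CPM in shRNF11 and 3.02 ± 0.338 CPM in shControl (SD, n = 3 each), a 2.60-fold difference (log2 fold change 1.38, SE 0.152). Every shRNF11 library had more reads than any shControl library.

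MT1X (Entrez 4501) had 38.0, 39.8 and 39.5 CPM in shRNF11 libraries, against 15.6, 16.4 and 19.4 CPM in shControl libraries. The fold difference was 2.28 (log2 fold change 1.19, SE 0.0710). The shRNF11 libraries were tight, whereas shControl replicate 3 stood above the other 2 of its arm.

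MT2A (Entrez 4502), with the most reads of the 4, had 380.5, 437.4 and 367.1 CPM in shRNF11 libraries and 230.3, 215.1 and 195.4 CPM in shControl libraries. Its difference was 1.85-fold (log2 fold change 0.89), the smallest of the 4. The arms stayed apart, although shRNF11 replicate 2 lay well above its companions.

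Metallothionein genes are near copies of one another, so reads can be split or misplaced among them, and the 4 rows were also added up. Together they held 457.7, 514.1 and 446.9 CPM in shRNF11 and 260.1, 244.6 and 228.0 CPM in shControl, a 1.94-fold difference (472.9 ± 36.0 against 244.2 ± 16.0 CPM; SD, n = 3 each). Moving reads among the 4 rows leaves this sum as it is, whereas reads placed elsewhere in the family or dropped as ambiguous would change it. Of the rest of the family, MT3, a form known from brain, had 7 reads in the 6 libraries and MT1B had 1. The other 14 metallothionein genes and pseudogenes looked for were not among the listed genes and so were not analysed.

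The make-up of the metallothionein reads also differed between the arms, a ratio taken inside each library that no scaling can alter. Reads misplaced among these near copies would alter it. MT1E had 8.35, 6.67 and 8.68 reads per 100 MT2A reads in shRNF11 libraries and 4.67, 4.80 and 5.28 in shControl libraries. MT1F had 1.95, 1.75 and 2.31 per 100 in shRNF11, against 1.47, 1.26 and 1.52 in shControl. Both ratios were higher in each shRNF11 library than in any shControl library, so that MT1E and MT1F differed by more than MT2A did. The MT1X ratio did overlap: it was 9.98, 9.09 and 10.8 in shRNF11 and 6.78, 7.64 and 9.93 in shControl, where replicate 3 reached into the shRNF11 range. MT2A took 83.5% ± 1.51 of the family's reads in shRNF11 and 87.4% ± 1.52 in shControl (SD, n = 3 each). These are shares of reads, not divided by transcript length.

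**Figure D2:**
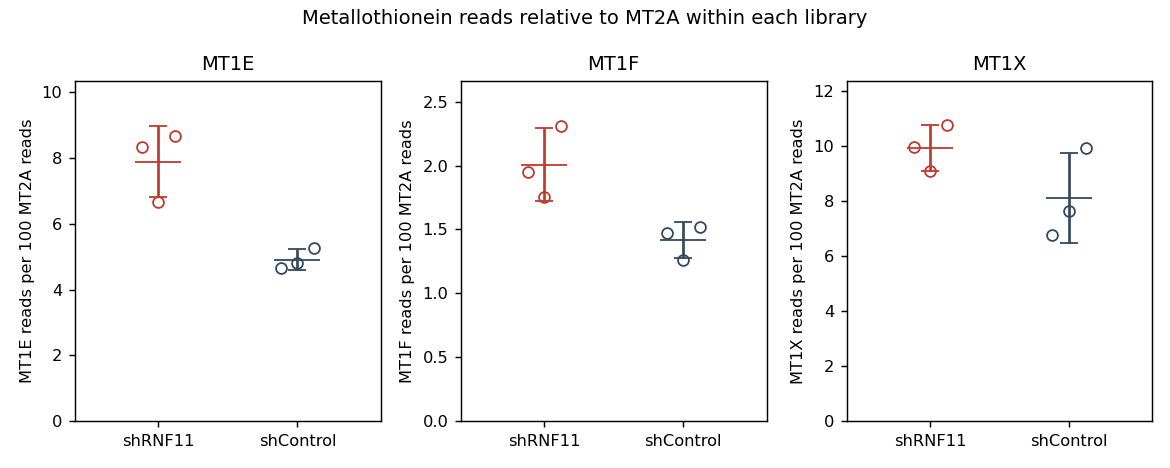
Reads of MT1E, MT1F and MT1X per 100 MT2A reads within each library (y axes, from 0); open points are libraries, and the cross lines and bars give the mean and SD of 3. The arms are apart for MT1E (6.67 to 8.68 in shRNF11, 4.67 to 5.28 in shControl) and MT1F, and overlap for MT1X.

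How much replicates of 1 arm varied is a measure that the choice of genes did not use, and here MT2A stood out. Its SD on the log2(CPM + 0.5) scale, pooled over the arms, was 0.126, against a median of 0.0317 among the 500 tested genes nearest to it in abundance, and all 500 of them varied less. Of the 510 tested genes with a mean CPM at or above that of MT2A, 0 varied as much, the highest being 0.0927. The edgeR standard error of the MT2A fold change, which borrows spread from other genes, was 0.0410. Computed from the replicates of MT2A alone it was 0.103, so the borrowed value may understate the error of this gene. The replicate value was also the larger for SLC39A10 (0.0554 from its replicates, 0.0352 from edgeR), SLC30A5 (0.0853 and 0.0517), SLC30A1 (0.0532 and 0.0380) and MT1X (0.0939 and 0.0710). It was the smaller for MT1E (0.0454 from its replicates, 0.0795 from edgeR), MT1F (0.0964 and 0.152), MTF1 (0.0326 and 0.0603) and SLC39A14 (0.0165 and 0.0298). For SLC30A7 the values were about equal (0.0613 and 0.0616). A standard error from 3 libraries per arm is itself uncertain. The spread of MT2A was similar in both arms, with a coefficient of variation of 9.46% in shRNF11 and 8.21% in shControl.

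MT1X also varied more than 88.2% of its 500 neighbours in abundance, while MT1E varied more than only 13.6% of its own. The metallothioneins did not always deviate together. In shRNF11 replicate 2, MT2A lay 0.15 above its arm mean on the log2 scale and MT1E 0.08 below. In shControl replicate 3, MT2A lay 0.12 below its arm mean and MT1X 0.18 above.

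**Figure D3:**
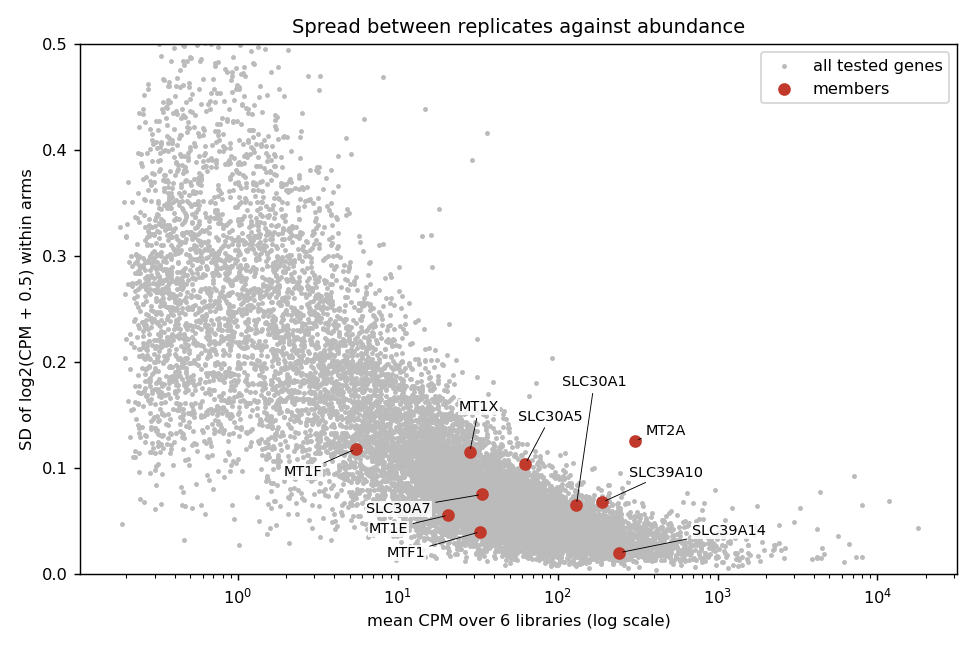
SD of log2(CPM + 0.5) between replicates, pooled over the arms (y axis), against mean CPM over 6 libraries (x axis, log scale) for all tested genes (grey) and the 10 members (red); 57 genes lie above the plotted range. MT2A, at 0.126, sits above every grey point of equal or higher abundance, while SLC39A14, at 0.0202, lies low in the cloud.

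MTF1 (Entrez 4520), which senses zinc and drives metallothionein genes, had 34.2, 34.9 and 32.7 CPM in shRNF11 libraries and 32.1, 32.0 and 30.8 CPM in shControl libraries. The arms did not overlap, but by a small margin: the difference was 1.07-fold (log2 fold change 0.10, SE 0.0603) and did not reach the threshold. Groups that do not overlap were common here. They occurred in 22.0% of all tested genes with shRNF11 higher and 20.9% with shRNF11 lower (42.8% in all), against 6 higher and 1 lower among the members.

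SLC30A1 (Entrez 7779) exports zinc across the plasma membrane and is itself a target of MTF1. It had 126.2, 139.5 and 141.2 CPM in shRNF11 libraries and 124.9, 128.8 and 124.5 CPM in shControl libraries. The arms overlapped, since shRNF11 replicate 1 lay among the shControl values, and the difference was 1.08-fold (log2 fold change 0.11, SE 0.0380). It passed the threshold in the full comparison but not when scaled by upper-quartile factors or library totals (log2 fold changes 0.09 and 0.04). Nor did it pass without shRNF11 replicate 2 or 3 (0.09 and 0.08) or without shControl replicate 1 or 3 (0.10 each).

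SLC30A5 and SLC30A7 move zinc into the Golgi and early secretory pathway, where secreted and surface enzymes receive it. SLC30A5 (Entrez 64924) had 57.1, 57.5 and 66.5 CPM in shRNF11 libraries, against 67.4, 67.2 and 60.9 CPM in shControl libraries (log2 fold change -0.11, SE 0.0517). Replicate 3 of each arm lay on the other arm's side, and the gene varied more between replicates than 98.0% of its neighbours in abundance. Without shRNF11 replicate 3 its log2 fold change was -0.18 and without shControl replicate 3 it was -0.16, both past the threshold that the full comparison missed. It also passed with library totals (-0.17), upper-quartile factors (-0.13) and a filter at a mean of 5 CPM (-0.12). SLC30A7 (Entrez 148867) had 31.0 to 35.4 CPM in shRNF11 and 32.9 to 35.2 CPM in shControl, overlapping in full (log2 fold change -0.04, SE 0.0616).

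SLC39A14 (Entrez 23516), a surface importer of zinc that also carries iron and manganese and is known from liver in inflammation, was the transporter that differed most among the members. It had 277.7, 275.0 and 269.7 CPM in shRNF11 libraries and 208.2, 212.8 and 213.1 CPM in shControl libraries, 1.30-fold higher (log2 fold change 0.38, SE 0.0298). The coefficient of variation was 1.48% in shRNF11 and 1.31% in shControl, so the arms stood far apart for their spread.

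SLC39A10 (Entrez 57181), a surface importer that can pair with SLC39A6, went the other way. It had 184.1, 170.7 and 193.2 CPM in shRNF11 libraries and 202.6, 194.8 and 194.2 CPM in shControl libraries, 1.08-fold lower (log2 fold change -0.11, SE 0.0352). The highest shRNF11 library nearly reached the lowest shControl one. Without shRNF11 replicate 2 the log2 fold change was -0.06 and without shControl replicate 1 it was -0.09, neither past the threshold. Set against SLC39A14 inside each library, SLC39A10 had 66.3, 62.1 and 71.7 reads per 100 in shRNF11 and 97.3, 91.6 and 91.1 in shControl.

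**Figure D4:**
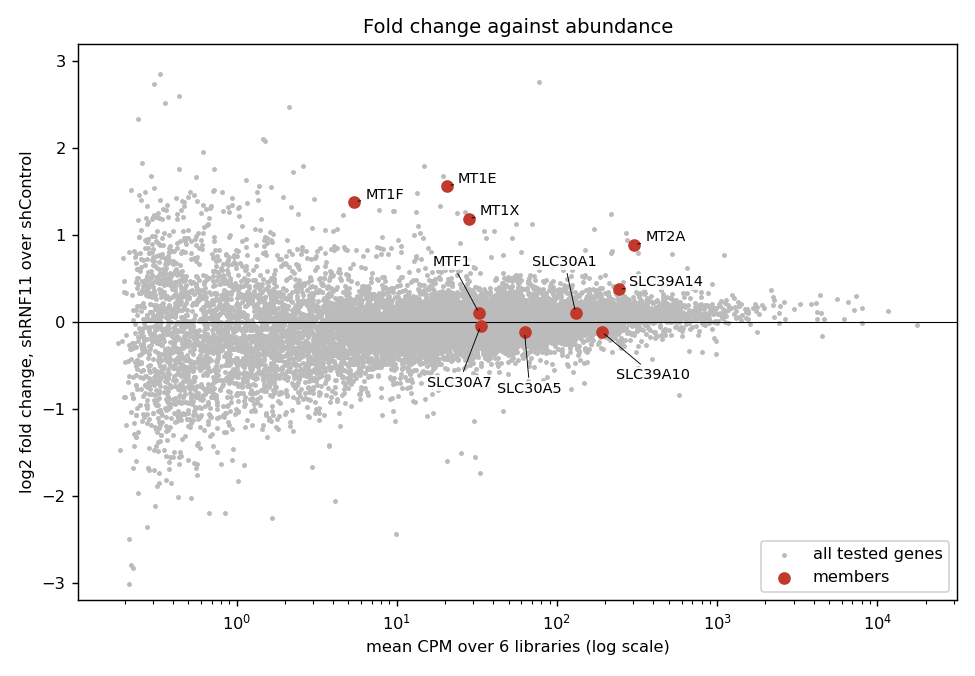
Log2 fold change, shRNF11 over shControl (y axis), against mean CPM over 6 libraries (x axis, log scale) for all tested genes (grey) and the 10 members (red, named); 9 genes lie outside the plotted range. The 4 metallothioneins, at 0.89 to 1.56, lie above most of the cloud, and MTF1, SLC30A1, SLC30A5, SLC30A7 and SLC39A10 lie within 0.11 of 0.

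The rest of both transporter families was not among the chosen genes and is given with its tests, but this list too was drawn up with earlier results known and is what the choice left over. Of 19 other family members 17 were listed, without SLC30A2 and SLC30A8, and 12 of these had enough reads. Of the 12, 2 were higher, 1 was lower and 9 did not pass, where 32.1% of all tested genes changed. All 3 that changed were importers. Their median log2 fold change was -0.0194 over the 12, against -0.0079 over all tested genes.

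SLC39A1, a widely expressed zinc importer of the cell surface, changed most of the 3. It had 9343, 9323 and 9115 reads in shRNF11 libraries and 7018, 6893 and 6900 in shControl libraries. At 245.4 ± 5.12 CPM in shRNF11 and 179.8 ± 1.51 CPM in shControl (SD, n = 3 each) it was 1.37-fold higher, a log2 fold change of 0.45 (SE 0.0310; adjusted p = 5.08e-17 in edgeR). This is of the same order as SLC39A14, and all 3 libraries of shRNF11 lay above all of shControl for both genes.

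SLC39A6, the partner of SLC39A10, was 1.12-fold higher at 206.9 ± 7.91 CPM in shRNF11 and 184.8 ± 7.73 CPM in shControl (SD, n = 3 each; edgeR adjusted p = 0.000154). Its log2 fold change was 0.16 with an SE of 0.0340. The partners thus differed in opposite directions by small amounts. SLC39A11, a distant member of the family, was 1.30-fold lower, with 210, 250 and 273 reads in shRNF11 against 305, 361 and 311 in shControl (adjusted p = 0.0185 in edgeR; log2 fold change -0.38, SE 0.129). That call was lost without shRNF11 replicate 1 (adjusted p = 0.106) and without shControl replicate 2 (adjusted p = 0.127).

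Importers that did not pass included SLC39A8, the nearest relative of SLC39A14, at 65.3 ± 2.10 CPM in shRNF11 and 69.2 ± 1.56 CPM in shControl (log2 fold change -0.08, 95% interval -0.17 to 0.0066). Its arms did not overlap. Scaled by library totals it was lower (log2 fold change -0.15, adjusted p = 0.0099). SLC39A7, which releases zinc from the endoplasmic reticulum, had 200.0 ± 3.15 CPM in shRNF11 and 197.6 ± 2.15 CPM in shControl (interval -0.0439 to 0.0792 on the log2 scale). SLC39A3, SLC39A9 and SLC39A13 had log2 fold changes between -0.04 and 0.02. SLC39A2, SLC39A4, SLC39A5 and SLC39A12 had at most 5 reads in a library and were not tested.

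None (0) of the 4 other exporters tested passed in edgeR, with 0 at an unadjusted p under 0.05 and 0 in DESeq2 and limma-voom. SLC30A6, which works as a pair with SLC30A5, had 46.6 ± 1.80 CPM in shRNF11 and 45.6 ± 2.38 CPM in shControl (SD, n = 3 each; 95% interval of the log2 fold change -0.0747 to 0.14). SLC30A9, a mitochondrial zinc transporter, had 46.4 ± 1.20 CPM in shRNF11 and 48.1 ± 1.43 CPM in shControl (interval -0.15 to 0.0514). For SLC30A4 and SLC30A3, transporters of intracellular vesicles, reads were too few for narrow limits, with intervals of -0.50 to 0.32 and -1.33 to 0.14. SLC30A10 had 1 read in all.

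**Figure D5:**
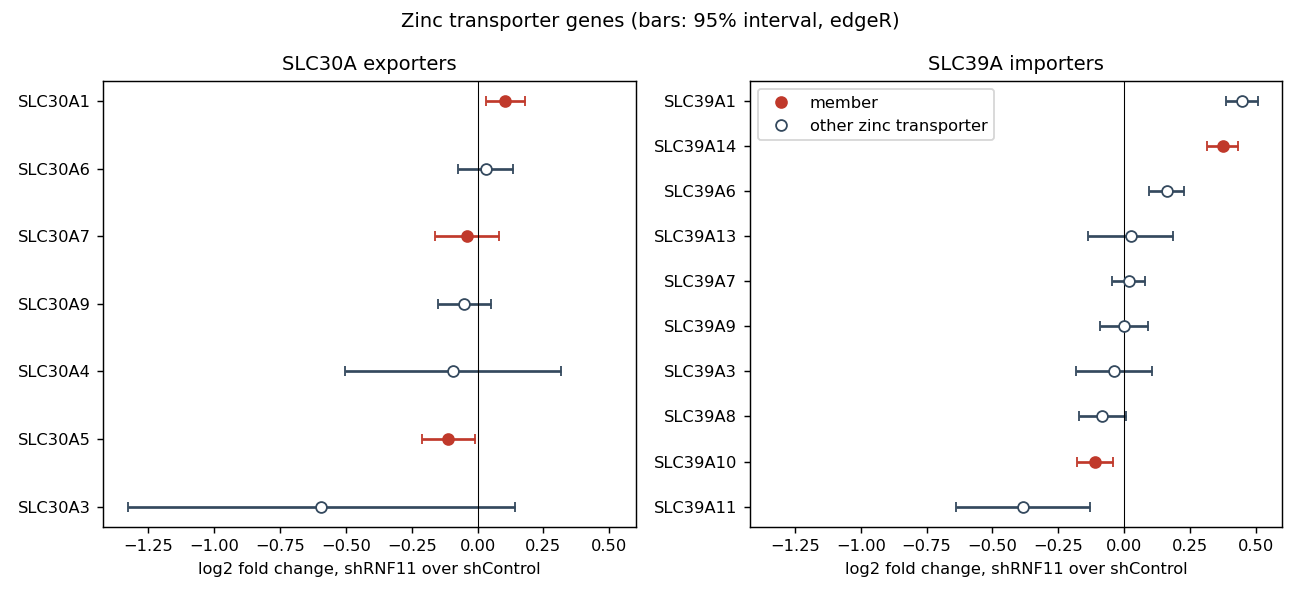
Log2 fold change, shRNF11 over shControl (x axis), of every tested zinc exporter (left) and importer (right); bars are 95% intervals from edgeR standard errors, filled red points are members and open points the other transporters. SLC39A1 (0.45) and SLC39A14 (0.38) lie to the right of the other genes, and SLC30A3 (-0.59) and SLC30A4 (-0.09) have the widest bars of the exporters.

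Genes known to act on metallothionein transcription gave 3 lower members of 8 tested and 5 that did not pass (median log2 fold change -0.0303). Of all tested genes 14.7% were lower and 32.1% changed in either direction. SP1, a general promoter factor, was 1.16-fold lower at 143.7 ± 7.22 CPM in shRNF11 and 166.3 ± 4.87 CPM in shControl (edgeR adjusted p = 6.02e-06). NFE2L1, a stress factor of the cap'n'collar family, was 1.08-fold lower (edgeR adjusted p = 0.000497). NR3C1, the glucocorticoid receptor, was 1.09-fold lower at 109.2 ± 7.15 CPM in shRNF11 and 118.9 ± 6.29 CPM in shControl (edgeR adjusted p = 0.0180), with overlapping arms. The NR3C1 call was lost without shRNF11 replicate 1 or 2 (adjusted p = 0.124 and 0.137) and without shControl replicate 2 (adjusted p = 0.198).

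Other genes that metals or hormones act on are set beside the metallothioneins here. HMOX1, heme oxygenase 1, a sensitive gene of cadmium and oxidant exposure named after its values were seen, had 309, 303 and 260 reads in shRNF11 and 354, 301 and 312 in shControl (log2 fold change -0.12, 95% interval -0.36 to 0.13). Its list of 13 genes of cadmium and oxidant stress split into 3 higher, 4 lower and 6 below the threshold, where 17.4% of all tested genes were higher and 14.7% lower, with a median of -0.0208. TXNRD1, thioredoxin reductase, was 1.15-fold higher (edgeR adjusted p = 2.27e-08), and HSPA1A, an inducible HSP70 gene, 1.14-fold lower (edgeR adjusted p = 1.23e-06). GCLM, a subunit of the enzyme that starts glutathione synthesis, was 1.20-fold higher (edgeR adjusted p = 0.000444). GCLC, of the same enzyme, was 1.08-fold lower, close to the threshold (edgeR adjusted p = 0.0478). SLC7A11, the cystine importer, was 1.21-fold lower (edgeR adjusted p = 6.65e-06). HSPA1A has a near-identical copy, HSPA1B, so the assignment of its reads is uncertain.

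Among 11 copper genes 2 were higher, 1 was lower and 8 did not pass, where 32.1% of all tested genes changed, with a median of 0.0814. SOD1, the copper and zinc superoxide dismutase, was 1.23-fold higher at 196.0 ± 2.92 CPM in shRNF11 and 159.1 ± 1.70 CPM in shControl (SD, n = 3 each; edgeR adjusted p = 1.19e-10). ATOX1, a copper chaperone, was 1.22-fold higher (edgeR adjusted p = 0.00747). CCS, which delivers copper to SOD1, was 1.29-fold lower (edgeR adjusted p = 0.00758), a call lost without shRNF11 replicate 1 (adjusted p = 0.0606).

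Iron genes were mixed as well, with 3 higher, 4 lower and 2 that did not pass among 9 tested (median 0.0066), where 32.1% of all tested genes changed. SLC11A2, the ferrous iron importer DMT1, was 1.23-fold lower at 56.0 ± 5.14 CPM in shRNF11 and 69.0 ± 2.08 CPM in shControl (edgeR adjusted p = 4.34e-06). ACO1, an iron-regulatory protein, was 1.15-fold lower (edgeR adjusted p = 0.000199). FTL, the ferritin light chain, was 1.07-fold higher (edgeR adjusted p = 0.000891), a call lost with library totals (adjusted p = 0.27). The 7 changed iron genes fell to 4 without shRNF11 replicate 2, 3 without shControl replicate 1 and 4 without shControl replicate 3.

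Of 12 tested genes known to be induced by glucocorticoids, metallothioneins left out, 9 were higher, 1 was lower and 2 did not pass (median log2 fold change 0.81), where 17.4% of all tested genes were higher and 14.7% lower. This list was drawn up with its earlier result known and is no independent evidence. FKBP5, a co-chaperone of the receptor, was 2.11-fold higher with 8654, 8821 and 8817 reads in shRNF11 and 4130, 4493 and 4124 in shControl, and SGK1, a kinase of sodium transport, was 1.40-fold lower.

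The genes closest to MT2A and MT1E in profile over the 6 libraries were found among 10056 other tested genes averaging 5 CPM or more. Closeness was the root-mean-square difference of log2(CPM + 0.5) after subtracting each gene's shControl mean. For MT2A they were PPL, which encodes the desmosomal protein periplakin (0.0728), the aldo-keto reductase AKR1C3 (0.0957), the MHC class II invariant chain CD74 (0.0959) and the cytokine IL18 (0.0995). For MT1E they were the poly(A) polymerase TENT5B (0.131), the sodium channel subunit SCNN1A (0.166), the cell cycle inhibitor CDKN1C (0.17) and the lipase inhibitor ANGPTL4 (0.174). CDKN1C and ANGPTL4 were already counted in the list of glucocorticoid-induced genes above. The distance between MT2A and MT1E themselves was 0.467, while MT1F lay 0.157 from MT1X. CDKN1C averaged 30.1 ± 3.79 CPM in shRNF11 and 10.1 ± 1.24 CPM in shControl, and PPL 20.2 ± 1.26 CPM in shRNF11 and 11.2 ± 0.787 CPM in shControl (SD, n = 3 each). With 2 arms, closeness mostly means a like difference between them.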

How the data were processed

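The deposited table holds the authors' raw counts per gene, not normalized, for 6 libraries, 3 per arm, with groups and replicate numbers from the titles. Total RNA was taken up in TRIzol and sequenced from VAHTS Universal V10 libraries, per the labels' protocols. The submitters' processing notes name fastp, HISAT2 and HTSeq, without versions. Genome build, annotation and strand setting: not given in the sources used here.

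Genes were kept by filterByExpr of edgeR 4.0.16 (minimum count 10), which left 13489 of 20499. Counts were scaled with TMM factors and the arms compared with the quasi-likelihood F-test, group as the sole term, with Benjamini-Hochberg adjustment across the 13489 genes (R 4.3.3). Standard errors come from the F statistic (effect size over the root of F), and 95% intervals are normal ones from them. Replicate spread uses log2(CPM + 0.5). The fit was tested on simulated counts. The median standard error was 0.0711, with a common biological coefficient of variation of 4.82%. Within arms the chi-square statistic per gene between libraries was 3.79 to 5.85, so none repeated another.

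The members and all lists were chosen with earlier results of these data known. Named genes are the members, RNF11, every tested zinc transporter, up to 6 changed genes of each other list, and the 4 genes nearest in profile to MT2A and MT1E. Alternatives were a replicate block, leaving out each library, limma-voom (limma 3.58.1) and DESeq2 1.42.0, no filter or one at a mean of 5 CPM, and scaling by library totals, upper-quartile factors or DESeq2 size factors.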

Additional observations from a re-analysis of the deposited data

How the results depend on the processing

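The members were read under 14 alternatives each, all refits of the same 6 libraries. Since the genes were chosen with this comparison known, passing the threshold in these refits is no further support. MT1E, MT1F, MT1X, MT2A and SLC39A14 kept their direction and stayed past the threshold under all 14, with log2 fold changes of 1.50 to 1.61, 1.31 to 1.47, 1.12 to 1.29, 0.81 to 0.95 and 0.31 to 0.39. SLC39A10 passed under 12, SLC30A1 under 8 and SLC30A5 under 5, while MTF1 and SLC30A7 passed under none (0). SLC30A7 changed sign without shRNF11 replicate 1, its values with a library left out lying between -0.08736 and 0.004868. The summed metallothionein reads gave log2 ratios of 0.889 to 1.00. From 5 to 8 members passed, the fewest without shRNF11 replicate 2 or shControl replicate 1.

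All genes gave 3478 to 4590 changed ones, and 54.2% of those changed were higher with TMM factors against 29.1% with library totals (46.4% with upper-quartile factors). The iron list had 4 changed genes with library totals, all lower, and 3 to 6 with a library left out.

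Transporters near 0 changed sign. With library totals, which shift the median of all genes by -0.0642, these were SLC30A6 (-0.03383), SLC39A7 (-0.04666), SLC39A9 (-0.06345) and SLC39A13 (-0.03951). With upper-quartile factors they were SLC39A7 (-0.00171) and SLC39A9 (-0.01872), and with the 5 CPM filter SLC39A9 (-0.01244). With a library left out they were SLC30A4 (-0.2745 to 0.02611), SLC30A6 (-0.006299 to 0.06837), SLC39A3 (-0.1237 to 0.05191) and SLC39A9 (-0.02515 to 0.03479). A change of scaling moves all genes by much the same amount, so genes this near 0 can change sign with it. The cause of the changes with a library left out was not tested.

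With the replicate number as a block 4399 genes changed, against 4336 without it, and 7 members passed either way. Same-numbered libraries had deviations that correlated at -0.0291 to -0.0081, and 0 of 6 libraries correlated best with their own number, so they share only a number. Counting depth limits MT1F, SLC30A3, SLC30A4 and SLC39A11, which had at most 361 reads in a library.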

Other observations

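The table's own annotation offers other groups of metal genes, looked up after the members' values were seen. It places MT1E, MT1F, MT1X, MT2A and SLC30A1 in the KEGG pathway of mineral absorption. Of the 22 other tested genes of that pathway 7 were higher and 5 were lower in shRNF11 cells (54.5% changed, against 32.1% of all tested genes), with a median log2 fold change of 0.0321. Some of them, such as ATOX1, FTL, SLC11A2 and HMOX1, were already counted in the lists above. ATP2B4, a calcium pump of the plasma membrane, was 1.40-fold higher at 69.5 ± 1.73 CPM in shRNF11 and 49.6 ± 2.23 CPM in shControl (SD, n = 3 each; edgeR adjusted p = 1.03e-11). VDR, the vitamin D receptor, was 1.21-fold lower at 19.8 ± 0.568 CPM in shRNF11 and 23.9 ± 1.70 CPM in shControl (edgeR adjusted p = 0.00426).

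MTF1 and the 4 metallothioneins carry the Gene Ontology term for the cellular response to zinc, as do 6 other tested genes, of which 2 were higher and 1 was lower, where 32.1% of all tested genes changed. TSPO, a protein of the outer mitochondrial membrane, was 1.22-fold higher (edgeR adjusted p = 4.51e-06), PARP1, a DNA damage sensor with zinc fingers, 1.10-fold higher (edgeR adjusted p = 1.93e-05), and ATP13A2, a lysosomal transport ATPase, 1.12-fold lower (edgeR adjusted p = 0.0149). Among 19 other tested genes with the term for the cellular response to cadmium, 5 were higher and 4 lower (47.4% changed, against 32.1% of all tested genes), with a median of -0.0286. The 4 metallothioneins also carry the term for the cellular response to copper. Of 10 other tested genes with that term, 1 was higher and 4 lower (50% changed, against 32.1% of all tested genes). Their median was -0.0637.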
